A study of Mus musculus with 2 samples.

Results

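TRIM genes were described here in stromal cells of the mouse colon, across marker-gated stromal classes and between mice with and without a Pdgfra-driven Cre on floxed Il10ra alleles. TRIM proteins carry a shared N-terminal arrangement of a RING finger, B-box domains and a coiled coil, and most act as ubiquitin ligases through the RING. Their C-terminal domains differ and set what they bind: a PRY-SPRY domain in most antiviral members, NHL repeats in others, and PHD fingers with a bromodomain in the transcription co-regulators. Several members are known as interferon-inducible restriction or sensing factors, whereas others serve housekeeping roles in chromatin, the cytoskeleton and organelles. Members were the matrix rows whose symbol is Trim followed by a number and at most 1 lower-case letter, and 68 of 33696 rows met this rule. Relatives with other names (Pml, Mid1 and others) were not members and are given separately.

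The control mice were Il10ra ff and the other mice Il10ra ff; Pdgfra-cre. All carried floxed alleles of Il10ra, a receptor chain for interleukin-10, and no mice with Pdgfra-cre alone were part of the comparison. Per the series' design, 2 animals of each genotype were used, at 6 months of age. Living Podoplanin+ cells without CD45, CD31 or EpCAM had been sorted from whole colon. Each genotype gave 1 library, and how the mice were combined in it is not stated, so no test between genotypes was possible. Intervals below are 95% intervals for counting error only. Library and mouse differences cannot be told apart from the genotype.

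Where a pair of values is given below, the first is that of the control library and the second that of the Cre library. The libraries held 76570611 and 66845139 UMIs (unique molecular identifiers, counts of captured transcripts), and 10657 and 8302 cells were kept. In control fibroblasts Il10ra had 0 of 64137967 UMIs, which allows up to 0.0468 CPM (counts per 1000000 UMIs). Cre fibroblasts had 5 UMIs of it, or 0.0838 CPM. These counts therefore do not check the deletion, and the labels stand on their own. The libraries shared 115 barcodes, and 105 were shared between the kept cells of both. Leaving out those 105 changed neither the number nor the names of the TRIM genes that were 1.5-fold apart in fibroblasts.

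Fibroblasts were cells with a UMI of at least 3 of 5 fibroblast markers (Pdgfra, Col1a1, Col1a2, Dcn and Lum) that passed no other cell type's gate. They made up 9333 control cells (87.6%) and 7422 Cre cells (89.4%). Then 3 panels of 5 markers divided them by score: a subepithelial-like class (1594 and 630 cells), a lamina propria-like class (3268 and 2283) and an adventitial-like class (2679 and 3356). The names below are those of the panels. A class is a range of a score and not a separate type: 857 control and 382 Cre lamina propria cells lay within a score margin of 0.2 to 0.4, just inside the class, as did 252 and 130 subepithelial and 573 and 635 adventitial cells. The median UMI count of the class's own panel per cell was 12 in both libraries for the subepithelial class, 15 and 22 for the lamina propria class, and 11 and 14 for the adventitial class. Most subepithelial cells of both libraries fell in the same unsupervised cluster. Lamina propria cells lay mainly in clusters 2 and 8 in the control and 1 and 11 in the Cre library, and adventitial cells in clusters 5 and 3 against 0 and 9. Outside the fibroblasts, smooth muscle (678 and 244 cells), glia (62 and 104), interstitial cells of Cajal (36 and 41), mesothelium (58 and 46) and lymphatic endothelium (42 and 37) were gated by their own markers.

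The TRIM genes that were higher in the Cre library (values below) lie mostly in 1 stretch of chromosome 7. In the RefSeq order of protein-coding genes on GRCm38.p6, Trim6, Trim34a, Trim5, Trim12a, Trim34b and Trim12c follow each other, then Gm38525, then Trim30b, Trim30c, Trim30a and Trim30d. Their promoters are shown because several neighbours were higher in the same library and because they are copies of each other. The RefSeq table of promoter windows (250 bases before to 50 after the start) held 53 of the 68 members. It was searched on both strands for GAAA followed, after any 2 bases, by another GAAA, the core letters of the interferon-stimulated response element, which STAT and IRF factors bind. Sequences are 5′ to 3′ on the gene's strand, and capitals mark the match, including overlapping ones. A match on the opposite strand reads as a pair of TTTC here.

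Trim30a: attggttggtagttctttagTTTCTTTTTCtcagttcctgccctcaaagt
Trim30d: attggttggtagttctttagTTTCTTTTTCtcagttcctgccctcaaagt
Trim12c: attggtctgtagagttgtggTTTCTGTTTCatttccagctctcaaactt
Trim5: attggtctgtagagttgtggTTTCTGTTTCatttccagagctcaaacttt
Trim12a: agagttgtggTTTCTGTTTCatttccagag
Trim34a: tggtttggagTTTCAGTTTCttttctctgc
Trim30a, other start: ttgtttttagTTTCTTTTTCtcagttcctg
Trim21: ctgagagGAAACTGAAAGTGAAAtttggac
Trim26: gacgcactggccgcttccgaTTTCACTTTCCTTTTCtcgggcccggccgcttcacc
Trim2: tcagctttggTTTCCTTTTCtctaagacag

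On GRCm38.p6, the stretch of Trim30a is chr7:104465200-104465249, that of Trim30d chr7:104507861-104507910, that of Trim12c chr7:104353350-104353398 and that of Trim5 chr7:104288126-104288175, all on the minus strand. The match ended 26, 31, 19 and 39 bases before the annotated start in these 4 genes. For Trim12a (chr7:104315466-104315495, minus strand) and Trim34a (chr7:104244457-104244486, plus strand) it began at base 11 after the start. For Trim21 (chr7:102565447-102565476, minus strand) it began at base 14 after the start, and for Trim26 (chr17:36836966-36837021, plus strand) it ended 144 bases before it. In the window of the other annotated Trim30a start (chr7:104446104-104446133, minus strand) the match began at base 3 after the start, and in that of Trim2 (chr3:84212791-84212820, minus strand) at base 29. Over the match and 10 bases on each side, Trim5 and Trim12a had the same 30 bases, Trim12c differed from both at 2, and Trim30a and Trim30d had the same 30. Trim5 and Trim30a shared 15 of 30. The copies therefore do not count as separate occurrences of the motif.

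The motif was present in 1079 of 27025 genes of the table (3.99%) and in 9 of the 53 members (16.98%). Of the 7 members in the table that had at least 5 CPM and were at least 1.5-fold higher in Cre fibroblasts, 6 held it, and Trim69 did not. All 6 lie in the chromosome 7 stretch and include copies of each other, so they are not 6 separate occurrences. Of the 16 other members at or above 5 CPM in the table, 3 held the motif: Trim2, Trim21 and Trim26. The motif was chosen with earlier results known and the 7 members by their Cre values, so these shares are a description and not a test. Trim14, Trim16, Trim35 and 12 other members were not in the table.

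Over all fibroblasts the family summed to 735 and 804 CPM. Because the 5′ kit counts 1 end of each transcript, CPM values of different genes were compared without a length correction. Of the 68 members, 22 had a mean of at least 10 CPM over the libraries and are called measured below. A further 19 lay between 1 and 10 CPM, 25 were detected below 1 CPM, and Trim61 and Trim75 had 0 UMIs. The 6 most abundant members (Trim47, Trim28, Trim44, Trim8, Trim35 and Trim2) held 47.1% and 40.7% of all TRIM UMIs.

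The chromatin co-regulators were among the most abundant. Trim28, the co-repressor (KAP1) that KRAB zinc-finger proteins use to silence endogenous retroviruses, had 74.4 and 67.9 CPM. Trim24, a co-regulator of nuclear receptors, had 28.9 and 35.7 CPM, and Trim33, which acts on SMAD4, had 31.2 and 29.6 CPM. The fourth gene of this group, Trim66, had 23 and 49 UMIs only. All 3 abundant ones were within 1.5-fold, at ratios of Cre over control of 0.912 for Trim28, 0.947 for Trim33 and 1.24 for Trim24.

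Among members with a PRY-SPRY domain outside the interferon-inducible group, Trim47 led with 73.5 and 76.5 CPM. Trim35 had 49.5 and 41.1 CPM, Trim27 20.8 and 18.7, Trim41 18.02 and 18.3, and Trim11 15.2 and 15.5. All 5 are ubiquitin ligases of the cytosol or nucleus, and none of them was 1.5-fold apart. Trim44, which lacks a RING finger, had 61.3 and 63.6 CPM. Trim16 also lacks a RING finger and takes part in the autophagy of damaged lysosomes. It had 13.8 and 9.76 CPM.

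Of the NHL-repeat members, Trim2 had 36.1 and 33.2 CPM, Trim3 25.3 and 22.9, and Trim32, mutated in a limb-girdle muscular dystrophy, 7.37 and 7.43. Trim8, a regulator of cytokine signalling through SOCS1, had 51.3 and 45.3 CPM. Trim37, which acts at peroxisomes and centrioles, had 17.2 and 15.4 CPM, and Trim23, which carries an ARF GTPase domain, 11.2 and 11.9 CPM. The endoplasmic reticulum members Trim59 (4.77 and 4.02 CPM) and Trim13 (4.19 and 3.74 CPM) were lower. Trim46, of the microtubule-binding COS-box group, had 7.48 and 6.40 CPM, and Trim36 of the same group 2.43 and 1.89 CPM.

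Members known from other tissues were near 0. The sarcomere genes Trim54, Trim55 and Trim63 (muscle RING fingers) had 0, 1 and 1 UMIs in control fibroblasts and 2, 0 and 0 in Cre fibroblasts. Of the members known from the gut epithelium, Trim31 had 1 and 2 UMIs, Trim40 0 and 1, Trim15 1 and 2 and Trim50 3 and 2. The epithelial marker panel summed to 0.811 and 0.922 CPM in the same cells. Trim10, known from erythroid differentiation, had 3 and 11 UMIs in fibroblasts, where haemoglobin genes summed to 0.530 and 118 CPM. In the lamina propria class Trim10 had 0 and 1 UMIs, beside 0.612 and 398 CPM of haemoglobin genes. It had 1 and 4 UMIs in the adventitial class, beside 0.458 and 4.87 CPM. In the subepithelial class it had 2 and 3 UMIs, beside 0.471 and 3.42 CPM. The part of haemoglobin RNA in the Trim10 counts was not tested.

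**Figure D1:**
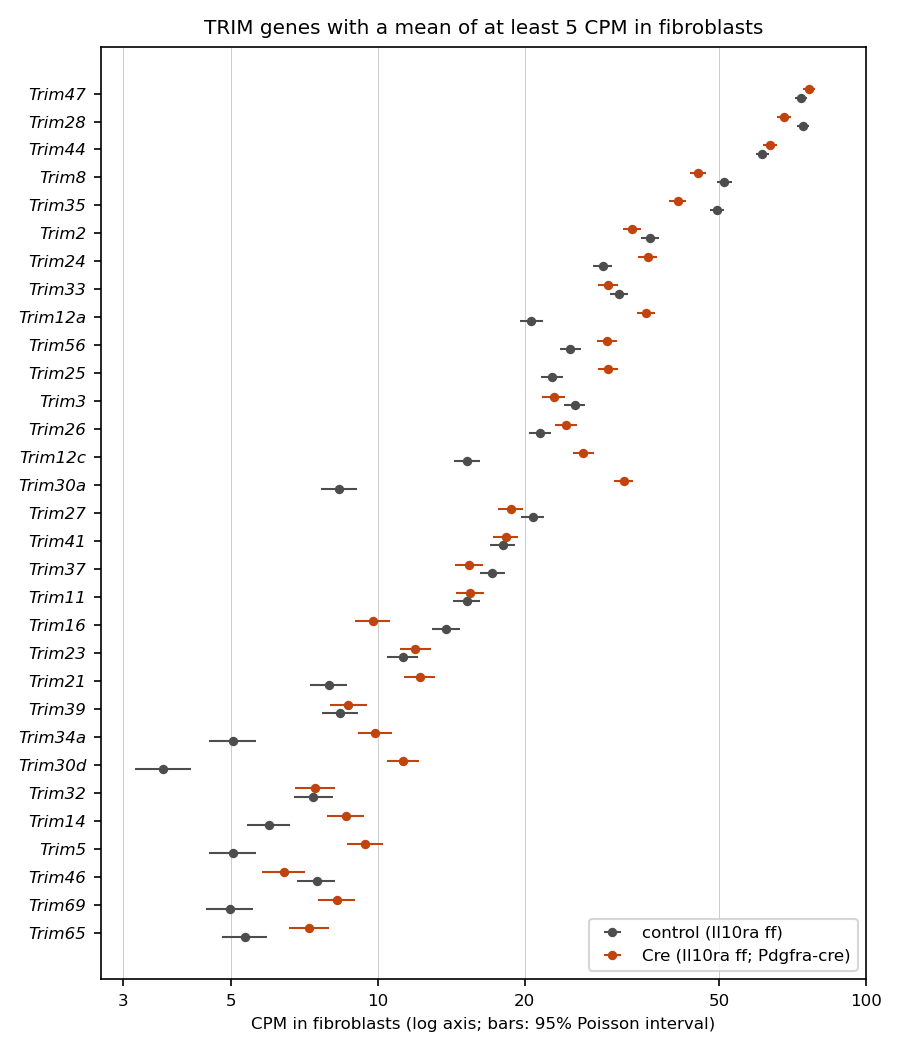
Level of each TRIM gene with a mean of at least 5 CPM in gated fibroblasts, on a log axis in CPM. Points are the 2 libraries and bars the 95% Poisson interval. Trim47 and Trim28 lead in both libraries, and the largest gap between the points is that of Trim30a, at 8.33 and 31.9 CPM.

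A member was called expressed in a class when it had at least 5 CPM and at least 3 UMIs there in each library. By this rule 36 of 68 members were expressed in at least 1 of 8 classes and 32 in none. The subepithelial class expressed 31, the lamina propria class 30 and the adventitial class 24. Smooth muscle and glia expressed 24 each, Cajal cells 22, mesothelium 31 and lymphatic endothelium 15. The small classes hold few UMIs, from 95661 in Cre lymphatic endothelium, where 3 UMIs already stand for more than 5 CPM, so a count there is not comparable with one in fibroblasts. All 8 classes expressed the same 12 members: Trim2, Trim11, Trim12a, Trim24, Trim25, Trim28, Trim33, Trim35, Trim37, Trim44, Trim47 and Trim56. All 3 fibroblast classes shared 22.

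**Figure D2:**
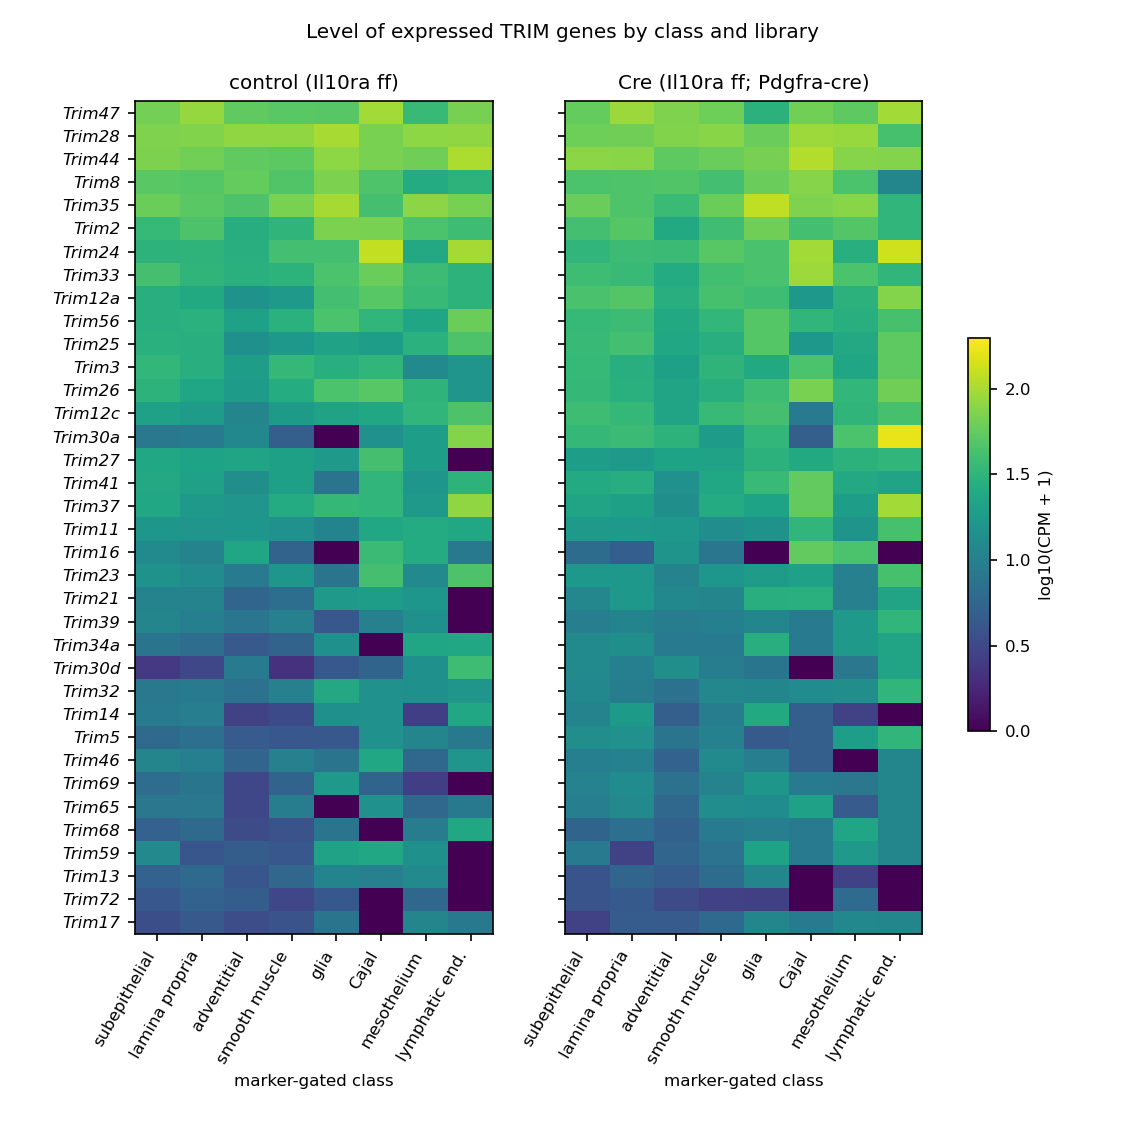
Level of every expressed TRIM gene in 8 marker-gated classes, control library on the left and Cre library on the right, as log10(CPM + 1). Trim28, Trim44 and Trim47 are bright across all classes, and Trim30a is brightest in lymphatic endothelium, at 74.3 and 167 CPM.

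Few members set 1 of the larger classes apart from the rest. Each class was compared with all other gated cells of its library, and a difference was counted when it was at least 2-fold in the same direction in both libraries with at least 50 UMIs in total, which 42 members had. No member differed this way in the subepithelial class, the lamina propria class or smooth muscle. Over 16297 genes, 2.98% were higher and 2.64% lower in the subepithelial class, 0.859% and 3.07% in the lamina propria class, and 3.69% and 2.27% in smooth muscle. In the adventitial class 1 member was lower, beside 6.36% of all genes lower and 1.14% higher. This was Trim14, a mitochondrial adaptor in MAVS signalling. It had 1.83 CPM in adventitial cells against 7.01 in the other gated cells of the control library, a ratio of 0.262 (0.176 to 0.376). In the Cre library it had 3.93 against 12.6 CPM, a ratio of 0.312 (0.252 to 0.384).

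More members met this rule in the small classes, as more genes did in general. In glia 4 members were higher and 1 lower (8.26% and 12.3% of all genes). In Cajal cells 6 were higher and 2 lower (9.21% and 10.7%), in mesothelium 2 and 1 (7.61% and 9.25%), and in lymphatic endothelium 6 and 5 (9.25% and 16.8%). Of the 28 differences in all classes, 11 had counting intervals that left out a ratio of 1 in both libraries.

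In lymphatic endothelium, Trim30a had 74.3 CPM against 8.07 in other control cells, a ratio of 9.21 (4.39 to 17.1). In the Cre library it had 167 against 31.1 CPM, a ratio of 5.37 (3.07 to 8.75). These levels rest on 10 and 16 UMIs. Trim37 (81.7 against 18.01 CPM and 94.1 against 16.1) and Trim24 (96.6 against 29.98 and 136 against 36.5) were higher there too. Trim62 had the largest ratio by point value, 10.2 and 6.65, but on 6 and 2 UMIs. The sort had left out cells with CD31, yet the gated cells had 334 and 429 CPM of Pecam1, the gene of CD31. They need not be a typical sample of lymphatic endothelium. In them the fibroblast panel summed to 4739 and 3356 CPM and the lamina propria panel to 1708 and 52.3 CPM. The part of this RNA in the TRIM levels was not tested.

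In Cajal cells, Trim24 had 122 CPM against 29.8 in other control cells and 94.97 against 36.4 in other Cre cells, ratios of 4.09 (2.69 to 5.96) and 2.61 (1.67 to 3.89). Trim16 had 36.1 against 13.2 CPM and 55.4 against 9.89 CPM there, ratios of 2.74 (1.18 to 5.43) and 5.60 (3.04 to 9.46). Trim7, at 2 and 3 UMIs, met the size rule on the higher side, and Trim72, at 0 in both libraries, on the lower side. Trim26, a SPRY-domain ligase encoded in the major histocompatibility region, had ratios of 2.25 and 2.72.

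Trim59 was higher in glia, at 19.9 against 4.87 CPM (4.10-fold, 1.49 to 9.01) and, among Cre cells, 20.6 against 4.41 CPM (4.68-fold, 2.39 to 8.31). It was also higher in mesothelium, at 13.4 against 4.86 CPM and 16.2 against 4.45 CPM, on 8 and 9 UMIs. Trim17 had 10.0 against 3.15 CPM and 10.8 against 3.62 CPM in mesothelium, on 6 UMIs in each library. Its ratios were 3.19 (1.16 to 7.04) and 2.99 (1.08 to 6.60). Trim16 had 0 UMIs in glia in both libraries, beside 13.3 and 10.2 CPM in the other gated cells. Trim34a had 2.57- and 2.79-fold higher levels in glia, and the control interval included 1. Trim14 had 1 UMI per library in mesothelium, where it met the size rule for lower levels. Trim13 had 0 UMIs in both libraries in lymphatic endothelium.

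Between the libraries, 3 of the 22 measured members passed 1.5-fold on the higher side in Cre fibroblasts and 0 on the lower side. The fold was taken as the log2 ratio of CPM + 1. Of the 9019 genes measured in fibroblasts, 3.85% were higher and 3.24% lower by the same rule. With 1 library per genotype these are differences between libraries without a replicate check. The median log2 ratio of the measured members was 0.04, beside -0.05 for all measured genes.

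Trim30a, which restrains NF-κB activation downstream of Toll-like receptors, had 8.33 CPM (534 UMIs) in control fibroblasts and 31.9 CPM (1901 UMIs) in Cre fibroblasts. The ratio was 3.83 (3.48 to 4.22), the largest among the measured members. Trim12a, a mouse relative of the primate capsid restriction factor TRIM5, had 20.6 and 35.4 CPM, a ratio of 1.72 (1.603 to 1.84). Trim12c, its near copy, had 15.2 and 26.3 CPM, a ratio of 1.73 (1.595 to 1.87). By this rule no other measured member was past 1.5-fold. Reads of such close copies can be assigned to the wrong one or dropped, and the handling of reads that match several genes is not given in the sources used here.

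The other 19 measured members lay between log2 ratios of -0.46 and 0.56, with 10 above 0 and 9 below. Just inside the threshold were Trim12c and Trim12a, both at a log2 ratio of 0.75. Just outside it were Trim21, the cytosolic receptor for antibody-coated pathogens, at 7.94 and 12.2 CPM and a log2 ratio of 0.56, and Trim25, the ligase of the RNA sensor RIG-I, at 22.8 and 29.6 CPM and 0.36. On the lower side the nearest were Trim16, with a log2 ratio of -0.46, and Trim35, with -0.26. Trim16 had a CPM ratio of 0.708 (0.637 to 0.787).

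**Figure D3:**
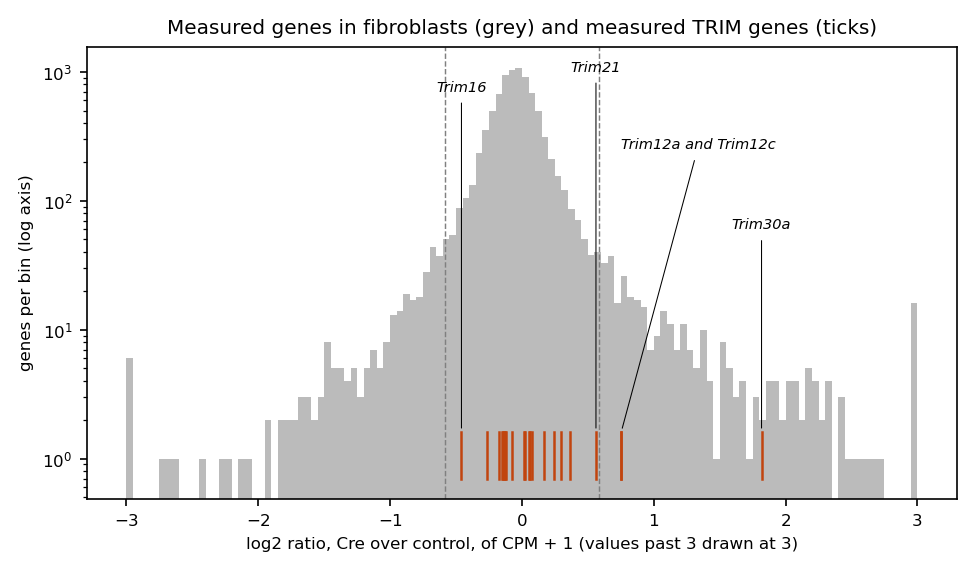
Log2 ratio of CPM + 1, Cre over control, for the 9019 genes measured in fibroblasts (grey bars, log count axis) and for the 22 measured TRIM genes (ticks). Dashed lines mark 1.5-fold, which Trim30a, Trim12a and Trim12c exceed on the higher side and no TRIM gene exceeds on the lower side.

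The interferon-inducible group, a list of 15 members, held all 3 of these genes. Of its 7 measured members 3 were higher, beside 3.85% of all measured genes, and 4 lay within 1.5-fold. Trim21, 1 of these 4, had a CPM ratio of 1.54 before 1 CPM was added. The median log2 ratio of these 7 was 0.56. All 15 members of the list together summed to 142 and 230 CPM. The other structural groups held no measured member past the threshold. Their median log2 ratios were -0.08 for the 3 measured chromatin members, -0.13 for the 2 NHL members, 0.02 for the 5 other SPRY members, -0.20 for the 2 without a RING finger and -0.03 for Trim37 and Trim23. Within the interferon-inducible group the sizes were unequal. Trim56, a sensing-pathway ligase, had 24.8 and 29.5 CPM (ratio 1.19) and Trim26 21.5 and 24.3 CPM (ratio 1.13).

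Of the 9 members at 5 to under 10 CPM, 4 were at least 1.5-fold higher and 5 were not. With a minimum of 5 CPM, 31 members entered and 7 were higher and 0 lower, beside 4.15% and 3.64% of genes. The 4 additional ones were Trim30d, Trim34a, Trim5 and Trim69. Trim30d, a neighbour and close relative of Trim30a, had 3.63 and 11.2 CPM, a ratio of 3.10 (2.66 to 3.61). Trim34a had 5.05 and 9.87 CPM (1.95, 1.704 to 2.25), Trim5 5.04 and 9.42 CPM (1.87, 1.63 to 2.15) and Trim69 4.97 and 8.23 CPM (1.66, 1.43 to 1.91). Of these, the first 3 lie in the chromosome 7 stretch and are in the interferon-inducible list. Trim69 is not in that list and was placed with the other SPRY members. Trim14, at 5.97 and 8.60 CPM, had a ratio of 1.44 (1.26 to 1.65) and did not pass. The rest of the stretch was near 0: Trim30c had 6 and 26 UMIs, Trim30b 1 and 7, Trim34b 6 and 2, and Trim6 53 and 72.

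Within each fibroblast class the higher members were again few, and 3 of them were shared. In the subepithelial class 3 of 21 measured members were higher and 0 lower (5.12% and 2.91% of genes). In the lamina propria class 5 of 22 were higher and 0 lower (4.93% and 3.02%), and in the adventitial class 5 of 21 and 0 (4.26% and 2.08%). Trim12a, Trim12c and Trim30a were past 1.5-fold in all 3 classes, and no measured member lay past it on opposite sides in 2 classes. Trim14 and Trim21 were added in the lamina propria class, and Trim25 and Trim30d in the adventitial class. With a minimum of 5 CPM, 7 of 32 members were higher and 1 lower in the subepithelial class (6.14% and 3.5% of genes), 9 of 32 and 1 in the lamina propria class (5.47% and 3.53%), and 8 of 27 and 0 in the adventitial class (4.69% and 2.26%). The lower member was Trim16 in both.

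Trim30a had 7.34 CPM in control and 33.3 CPM in Cre subepithelial cells, a ratio of 4.54 (3.43 to 6.05). In the lamina propria class it had 7.83 and 35.9 CPM, a ratio of 4.58 (3.89 to 5.42), and in the adventitial class 10.9 and 29.9 CPM, a ratio of 2.73 (2.33 to 3.21). The adventitial ratio lay below the other 2 and its interval did not meet theirs, and whether the difference of ratios exceeds the spread between mice was not tested. Control levels differed less between classes than Cre levels did from control levels.

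Trim12a had 26.7 and 42.9 CPM in the subepithelial class (ratio 1.61), 24.1 and 47.4 in the lamina propria class (1.97) and 13.9 and 27.5 in the adventitial class (1.98). Trim12c had 19.6 and 37.7 CPM (1.92), 17.3 and 33.0 CPM (1.91) and 10.2 and 20.9 CPM (2.05). Of the 3 classes the adventitial one had the lowest level of both genes in each library.

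Trim30d differed most in its control level. It had 1.41 CPM in control subepithelial cells, 2.08 in lamina propria and 8.02 in adventitial cells, and 11.4, 8.77 and 12.6 CPM in the Cre library. The ratios were 8.08 (4.47 to 15.5), 4.22 (3.05 to 5.91) and 1.57 (1.29 to 1.92). The Cre levels of the 3 classes were closer to each other than the control levels. Adventitial cells of the Cre library also had more UMIs each, with a median of 8576 against 6252, whereas the medians of the other 2 classes were alike (7285.5 and 7086 in lamina propria, 6342 and 6373.5 in subepithelial cells).

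The sensing members Trim21 and Trim25 differed by class too. Trim21 had a ratio of 1.08 (0.748 to 1.55) in the subepithelial class, 1.64 (1.37 to 1.96) in the lamina propria class and 2.34 (1.82 to 3.02) in the adventitial class, where its level was 4.64 and 10.8 CPM. Trim25 had ratios of 1.25, 1.45 and 1.76, with adventitial levels of 13.2 and 23.1 CPM. Trim14 had ratios of 1.26, 1.98 and 2.14, with lamina propria levels of 8.64 and 17.1 CPM. Of the members with a mean of at least 5 CPM in the class, Trim16 had the lowest ratio in each of the 3: 0.481 (0.297 to 0.750) at 11.4 and 5.48 CPM in the subepithelial class, 0.404 (0.304 to 0.532) at 9.62 and 3.89 CPM in the lamina propria class, and 0.670 (0.582 to 0.772) at 21.5 and 14.4 CPM in the adventitial class. Its mean was under 10 CPM in the first 2 classes, so it was not among their measured members. Trim47 had 65.4 and 56.4 CPM in the subepithelial class, 85.6 and 89.3 in the lamina propria class and 53.7 and 70.2 in the adventitial class.

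**Figure D4:**
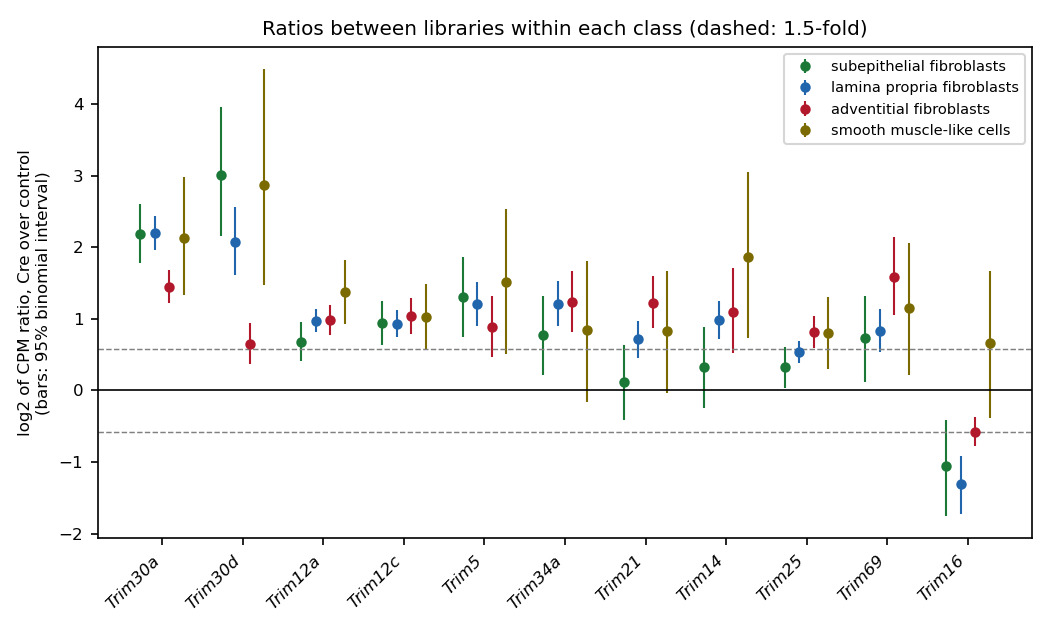
Log2 of the CPM ratio, Cre over control, of selected TRIM genes within each class. Points are the classes, bars the 95% binomial counting interval, and dashed lines 1.5-fold. Trim30a, Trim12a and Trim12c lie above the upper line in the 3 fibroblast classes, and Trim16 lies below 0 in all 3.

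In smooth muscle, 4 of 22 measured members were higher and 0 lower, beside 9.34% and 5.74% of genes. They were Trim12a (16.1 and 41.7 CPM), Trim12c (17.03 and 34.8 CPM), Trim25 (15.7 and 27.4 CPM) and Trim30a (4.02 and 17.6 CPM, a ratio of 4.39 with an interval of 2.51 to 7.86). The gate was not sharp: 345 control and 158 Cre cells had exactly 3 of its 5 markers, and 966 and 666 had exactly 2. The smooth muscle panel summed to 5530 and 3914 CPM in the gated cells, the fibroblast panel to 5066 and 7647 CPM and the lamina propria panel to 1122 and 1986 CPM. Cluster 10 held 81.6% of the control and 60.2% of the Cre cells of the gate. Within that cluster Trim12a had 14.8 and 47.8 CPM, Trim12c 15.9 and 52.0 CPM, and Trim30a 2.61 and 14.02 CPM on 12 and 17 UMIs. The part of the differing marker content in the TRIM differences of the gate was not tested. In control glia Trim30a had 0 of 300932 UMIs, which allows up to 9.97 CPM. Cre glia had 19 UMIs of it, or 32.7 CPM, which is 3.28 times that limit. The counting error of the 19 UMIs is not part of this figure. In mesothelium Trim30a had 18.4 and 43.3 CPM.

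The class mix of fibroblasts differed between libraries, so levels were also compared within unsupervised clusters. Of the 10 clusters with at least 100 cells of each library, 9 consisted mainly of fibroblasts and 1, cluster 10, mainly of smooth muscle. Fibroblast clusters 1, 6, 8, 9 and 12 had fewer than 100 cells of 1 library and were not compared. Cluster 1 alone held 1604 of the 2283 Cre lamina propria cells (70.3%), so most of these cells are outside this comparison. Among the 9 fibroblast clusters compared, Trim30a was at least 1.5-fold higher in Cre cells in 9 of 9, with ratios from 1.90 to 7.22. Trim12c passed in 4 of 9 (1.19 to 2.55) and Trim12a in 5 of 9 (0.897 to 1.68), and neither was 1.5-fold lower in any. The highest Trim30a ratio, 7.22, rested on 1 control UMI, with an interval of 1.13 to 302. It was that of cluster 14, in which 24 of 118 and 53 of 226 cells passed the pericyte gate. The next highest was 4.35 (3.12 to 6.12), in the cluster that held most subepithelial cells.

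**Figure D5:**
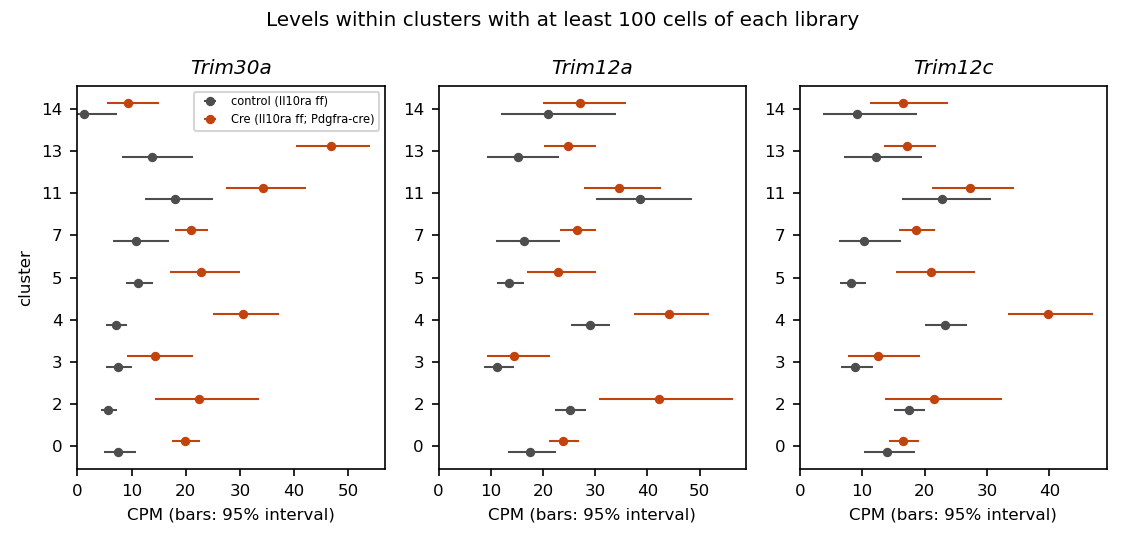
CPM of Trim30a, Trim12a and Trim12c in each of the 9 clusters that held mainly fibroblasts and at least 100 cells per library, with 95% Poisson intervals. Cre cells have the higher Trim30a level in all 9, whereas Trim12a is lower in Cre cells in cluster 11, at a ratio of 0.897.

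Leukocytes express many interferon-inducible TRIM genes, and their markers were looked up in the same cells. The 5-gene leukocyte panel (Ptprc, Laptm5, Coro1a, Tyrobp and Cd52) summed to 2.40 CPM in control and 4.09 CPM in Cre fibroblasts, with 5 and 2 of its 5 genes under 1 CPM. Ptprc, the gene of CD45, was at 0.0624 and 0.0335 CPM, and it alone of the panel was lower in Cre fibroblasts. Laptm5 had 0.172 and 0.419 CPM, Coro1a 0.530 and 1.04, Tyrobp 0.670 and 1.32, and Cd52 0.967 and 1.27. The panel summed to 1.13 and 2.74 CPM in the subepithelial class, 3.87 and 7.67 in the lamina propria class and 0.802 and 2.13 in the adventitial class. The leukocyte gate itself held 2 control and 14 Cre cells and 0 and 3 UMIs of Trim30a. Haemoglobin genes, at 0.530 and 118 CPM in fibroblasts, summed to 0.612 and 398 CPM in the lamina propria class. The part of these RNAs in the TRIM differences was not tested.

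Of 12 relatives of the family outside the symbol rule 4 were measured, and none was 1.5-fold apart over all fibroblasts, beside 3.85% of genes higher and 3.24% lower. Pml, which builds nuclear bodies, had 16.8 and 23.3 CPM, a ratio of 1.39 (1.28 to 1.503). In the adventitial class it passed 1.5-fold, at 14.5 and 23.5 CPM (1.62, 1.40 to 1.88). Mid1, a microtubule-binding ligase of the same domain plan, was the most abundant at 166 and 225 CPM, a ratio of 1.35 (1.32 to 1.39), and its relative Mid2 had 18.4 and 17.6 CPM.

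Of the genes that act with TRIM proteins in nucleic acid sensing, 14 were measured. Among them 5 were higher (3.85% of all measured genes were) and none lower, and the median log2 ratio was 0.42. Isg15, a ubiquitin-like modifier, had 61.8 and 229 CPM, a ratio of 3.71 (3.58 to 3.85). Irf7, a transcription factor of interferon genes, had 21.4 and 62.3 CPM (2.91, 2.73 to 3.10). Usp18, which removes Isg15 from proteins, had 6.16 and 15.5 CPM (2.52), the RNA sensor Ifih1 30.2 and 57.8 CPM (1.92) and Sting1, the adaptor of the DNA sensor, 10.6 and 20.02 CPM (1.89). The direct partners of TRIM25 and TRIM14 lay nearer to 1: Rigi, the RNA sensor, had 22.7 and 30.6 CPM (1.35), and Mavs, its adaptor, 11.7 and 11.0 CPM (0.938).

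The 9 ubiquitin-conjugating enzymes listed as working with TRIM ligases were all measured. None was 1.5-fold apart over all fibroblasts, beside 3.85% of genes higher and 3.24% lower, at a median log2 ratio of -0.04. Ube2d3, the most abundant, had 289 and 283 CPM, whereas Ube2l6, which also conjugates Isg15, had 47.2 and 67.3 CPM, a ratio of 1.43. Ube2l6 passed 1.5-fold in the lamina propria class (49.8 and 82.3 CPM, ratio 1.65) and in the adventitial class (35.9 and 57.8 CPM, ratio 1.61). Of the 8 listed chromatin partners of Trim28, Trim33 and Trim24 none was 1.5-fold apart, beside the same 3.85% and 3.24% of genes. Their median log2 ratio was -0.13. Setdb1, the histone methyltransferase that Trim28 recruits, had 14.2 and 12.5 CPM, and Smad4 had 77.4 and 71.5 CPM.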

How the data were processed

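Single-cell 5′ libraries of sorted colonic stromal cells, 1 per genotype, were used. The values deposited by the authors are raw UMI counts of each gene in each barcode. Cell Ranger 8.0.1 and GRCm39 are named in the submitters' processing notes, and the kit is a Chromium 5′ kit per the labels' protocols. The other settings are not given in the sources used here. No per-sample column was left unused (0).

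A barcode needed 500 genes and no more than 10% of its UMIs from mitochondrial genes, which 330 control and 214 Cre barcodes failed. Scrublet in scanpy 1.11.5 called doublets at an expected rate of 8% (393 and 111 calls, at score cutoffs of 0.326 and 0.404, so the calls do not compare the libraries) and they were removed. Clusters came from leidenalg 0.10.2 at resolution 1 on 2000 variable genes, 30 components and 15 neighbours. A cell took a non-fibroblast type with at least 3 of 5 markers, more than of any other. A fibroblast class was the panel with the highest mean z-score by a margin of 0.2. The gates of pericytes, blood endothelium, leukocytes and epithelium held few or scattered cells and were not described as classes.

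Counts were summed over the cells of a class and library and divided by its total to give CPM. Intervals are exact Poisson (levels) and exact Clopper-Pearson (ratios) at 95%, from scipy 1.17.1. Ratios on the log2 scale used CPM + 1. No test between genotypes was made. The procedure was tested on simulated data. These were Poisson counts without any spread between mice or libraries, so the effect of that spread was not tested. Depth per library is given as its UMI total, and a count of 0 allows 3 counts. TMM factors for an alternative came from edgeR 4.0.16 in R 4.3.3.

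Genes named are the measured members past 1.5-fold, the 6 most abundant, those past it in all 3 fibroblast classes, up to 3 class differences per class, the 2 nearest the threshold on each side, and the 2 most abundant of each list. Other members are named as the remainder of their gene group, chosen after their values were seen. The members, the lists, the markers and the motif were chosen with earlier results of these data known. RefSeq promoters (GRCm38.p6) are of another build than the counts. Symbols matched the promoter table for 53 of 68 members.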

Additional observations from a re-analysis of the deposited data

How the results depend on the processing

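No paired analysis was possible because each genotype has 1 library. For the same reason no replicate could be left out. In fibroblasts the 3 members higher in the Cre library became 1 (Trim30a) with 10 CPM added before the log, 7 with a minimum of 5 CPM, 7 with no minimum and 0 with a minimum of 50 CPM, which leaves 3 members, none of them Trim30a, Trim12a or Trim12c. With TMM factors, with 0.1 CPM added and over all kept cells the count was 4, Trim21 being the addition. With the 3 classes weighted alike 1 member, Trim16, was lower, and the median log2 ratio was 0.14 in place of 0.04. In the subepithelial class the 3 higher members became 7 with a minimum of 5 CPM, 8 with none and 0 at 50 CPM. They became 2 (Trim12c and Trim30a) with 10 CPM added, and also with 2 of 5 markers enough for a non-fibroblast type. Trim12a thus did not pass in all 3 fibroblast classes under these alternatives. The lower members there were 1 with a minimum of 5 CPM, 3 with none and 1 with classes taken from clusters. In the lamina propria class the 5 higher members became 3 with 10 CPM added, 9 with a minimum of 5 CPM, 9 with none and 0 at 50 CPM, and 1 member was lower with a minimum of 5 CPM or none. With TMM factors the higher members there were 4, without Trim21. They were 6 with classes from clusters (Trim25 added) and with a class margin of 0.5 (Trim5 added). In the adventitial class the 5 higher members became 3 with 10 CPM added, 8 with a minimum of 5 CPM, 12 with none and 0 at 50 CPM. With TMM factors, with 2 of 5 markers enough, or with a class margin of 0.5, they became 4, without Trim30d. There 1 member (Trim16) was lower with doublet calls kept, with classes from clusters, with no class margin and with a margin of 0.5. The cause was not tested where a different minimum or pseudocount does not show it. Over 11 alternatives each, log2 ratios ranged from 1.19 to 1.92 for Trim30a, 0.57 to 0.83 for Trim12a and 0.53 to 0.92 for Trim12c, and Trim2 ranged from -0.15 to 0.12. Counts of expressed members stayed within 1.5 times under the alternatives run. Leaving out shared barcodes was chosen after the data were seen. Depth limits the small classes most: lymphatic endothelium held 134638 and 95661 UMIs.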
